A study of Mus musculus with 42 samples.

Results

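The mevalonate pathway to squalene epoxide was followed step by step through 9 genes, Acat2, Hmgcs1, Mvk, Pmvk, Mvd, Idi1, Fdps, Fdft1 and Sqle, in mouse liver. The genes were taken by symbol from the raw count tables of an acute and a chronic arm, 9 of the 55573 gene IDs that each table holds. All 9 had counts above the low-count filter in both arms. In the cytosol this pathway joins acetyl-CoA units to make mevalonate, activates mevalonate with phosphate, and assembles the products into farnesyl diphosphate, squalene and, beyond squalene epoxide, cholesterol. Farnesyl diphosphate also feeds protein prenylation, dolichol and ubiquinone. In liver its genes are transcribed largely under SREBP-2, a membrane-bound factor that is released when sterols in the endoplasmic reticulum are low.

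The livers came from male mice of a strain labelled C57B6/J. In the acute arm, 6 mice each received corticosterone with enzalutamide (CORT+ENZA), corticosterone (CORT), enzalutamide (ENZA) or vehicle. In the chronic arm, 6 mice each received CORT+ENZA, CORT or vehicle, and the samples hold no chronic group given enzalutamide alone. Corticosterone is the main glucocorticoid of mice, and enzalutamide is a drug that blocks the androgen receptor. The labels give no dose, route, day of treatment or age. Acute RNA was isolated with a Qiagen RNeasy kit and chronic RNA with a Macherey-Nagel NucleoSpin kit, so kit and duration cannot be told apart. Each change below was therefore taken within its own table, and differences between the arms were not tested.

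Counts assigned to genes came to 18674151 to 20464521 per acute library and 15381724 to 19581723 per chronic library. The hepatocyte markers Alb, Apoa1, Ttr, Hnf4a and Cps1 together made up 57219 to 78459 CPM (counts per gene after scaling each library to a common size) in chronic CORT+ENZA mice, the lowest of the 7 groups, and all 5 were detected in every group. Markers of sinusoidal endothelial cells, cholangiocytes and erythroid cells were called in no comparison. Of 4 T and NK cell markers, 2 were measured in acute livers, without a call, and 0 in chronic livers. Of 4 neutrophil markers, 0 were measured in acute livers and 2 in chronic livers, without a call. Markers that were not measured could not be called. T and NK cells were therefore not tested in chronic livers, nor neutrophils in acute livers. On the principal components of all genes, acute CORT+ENZA mouse L36A and acute vehicle mouse L19A stood apart from the other acute mice. Chronic CORT+ENZA mouse 18 and chronic vehicle mouse 11 stood apart from their groups. The tissue is bulk liver, in which fewer cells of a type and less RNA per cell cannot be told apart.

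The members lie on 7 chromosomes (coordinates on GRCm38, build mm10). Acat2 (ENSMUSG00000023832, chr17:12942890-12960747, minus strand) encodes the cytosolic thiolase that joins a pair of acetyl-CoA molecules. Hmgcs1 (ENSMUSG00000093930, chr13:119690379-119708260, plus strand) encodes the cytosolic synthase that condenses a further acetyl-CoA with that product. Mvk (ENSMUSG00000041939, chr5:114444269-114460591, plus strand) encodes mevalonate kinase and Pmvk (ENSMUSG00000027952, chr3:89454541-89469013, plus strand) phosphomevalonate kinase, which add phosphate in turn. Mvd (ENSMUSG00000006517, chr8:122433601-122443422, minus strand) encodes the decarboxylase that makes isopentenyl diphosphate. Idi1 (ENSMUSG00000058258, chr13:8885501-8892451, plus strand) encodes the isomerase that turns part of it into dimethylallyl diphosphate. Fdps (ENSMUSG00000059743, chr3:89093588-89101959, minus strand) encodes farnesyl diphosphate synthase. Fdft1 (ENSMUSG00000021273, chr14:63145150-63179578, minus strand) encodes squalene synthase, which joins a pair of farnesyl diphosphates head to head. Sqle (ENSMUSG00000022351, chr15:59315077-59331192, plus strand) encodes squalene epoxidase, the monooxygenase that turns squalene into squalene epoxide.

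Because these genes are known to share SREBP control, the promoter windows of 4 members with 3 or more matches to motifs of that control (Hmgcs1, Mvk, Mvd and Idi1) are shown. Each window is the RefSeq sequence from 250 bases before to 50 after the start site on GRCm38.p6, read 5′ to 3′ on the gene's strand. The windows lie at chr13:119690101-119690400 (plus strand), chr5:114444019-114444318 (plus strand), chr8:122443373-122443672 (minus strand) and chr13:8885356-8885655 (plus strand). Capitals mark matches, on either strand, to the sterol regulatory element letters TCACNCCAC, the NF-Y box CCAAT and the GC box GGGCGG.
Hmgcs1: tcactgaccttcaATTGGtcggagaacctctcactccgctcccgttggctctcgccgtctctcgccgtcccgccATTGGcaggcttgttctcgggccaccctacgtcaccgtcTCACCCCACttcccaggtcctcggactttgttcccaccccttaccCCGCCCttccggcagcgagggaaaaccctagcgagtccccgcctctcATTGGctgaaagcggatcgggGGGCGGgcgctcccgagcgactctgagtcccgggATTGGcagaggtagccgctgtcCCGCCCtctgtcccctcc
Mvk: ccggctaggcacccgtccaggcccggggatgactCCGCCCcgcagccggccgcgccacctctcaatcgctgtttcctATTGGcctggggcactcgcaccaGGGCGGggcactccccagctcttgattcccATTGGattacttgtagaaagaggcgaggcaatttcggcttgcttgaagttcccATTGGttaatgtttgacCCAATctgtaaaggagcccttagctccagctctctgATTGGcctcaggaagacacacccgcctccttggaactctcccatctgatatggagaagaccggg
Mvd: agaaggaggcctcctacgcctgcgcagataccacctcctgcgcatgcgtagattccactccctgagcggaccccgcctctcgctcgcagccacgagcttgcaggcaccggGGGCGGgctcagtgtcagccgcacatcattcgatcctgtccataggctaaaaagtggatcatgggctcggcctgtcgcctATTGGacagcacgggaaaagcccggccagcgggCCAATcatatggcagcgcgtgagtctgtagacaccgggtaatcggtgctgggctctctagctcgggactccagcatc
Idi1: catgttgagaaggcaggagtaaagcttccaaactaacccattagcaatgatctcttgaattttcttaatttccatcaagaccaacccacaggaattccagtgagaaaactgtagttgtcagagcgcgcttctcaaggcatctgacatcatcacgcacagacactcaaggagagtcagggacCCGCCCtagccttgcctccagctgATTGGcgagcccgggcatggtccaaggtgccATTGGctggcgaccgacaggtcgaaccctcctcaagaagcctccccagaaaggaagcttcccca
RefSeq windows matched 6 of the 9 members, as 7 windows, because Pmvk has 2; Fdps, Fdft1 and Sqle had none in the table. The letters TCACNCCAC occurred in 1 of the 7, in Hmgcs1, beginning 137 bases before its start site, against 1.24% of 32851 windows of all genes. CCAAT occurred in 5 of the 7 (37.4% of all windows) and GGGCGG in 5 of the 7 (35.7%). Mvk held 5 CCAAT matches and Hmgcs1 held 4. Of the windows not printed, that of Acat2 held 1 GC box, and the windows of Pmvk, a gene also called higher in chronic CORT+ENZA than in CORT livers, held 1 CCAAT and no match at all. The palindromic glucocorticoid response element, written as GNACA, any 3 letters and TGTNC, occurred in 0 of the 7 windows (0.475% of all windows). No match overlapped another. These matches describe letters in a window and were not tested as binding sites.

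Levels per length were compared as CPM per kilobase of exon. By group mean, Hmgcs1 was the highest of the 9 in all 7 groups and Fdps the lowest. Hmgcs1 mice lay wholly above those of the next member in acute ENZA, acute vehicle and chronic CORT livers. In the other groups they overlapped. Per kilobase, Hmgcs1 averaged 78.5 ± 22.5 CPM in acute CORT+ENZA, 35.4 ± 11.9 in acute CORT, 121 ± 17.7 in acute ENZA and 45.6 ± 8.64 in acute vehicle mice (SD, n = 6 each). Fdps averaged 2.65 ± 1.33 CPM per kilobase in acute CORT+ENZA, 1.87 ± 0.703 in acute CORT, 3.34 ± 0.964 in acute ENZA and 2.34 ± 1.3 in acute vehicle mice. In the chronic arm Hmgcs1 averaged 133 ± 60.8 CPM per kilobase in CORT+ENZA, 33.1 ± 5.91 in CORT and 84.2 ± 41 in vehicle mice. Fdft1, the squalene synthase gene, was second in all 4 acute groups, and its mice lay wholly above those of the next member in each. Between these ends the order was mostly not resolved, although Pmvk lay wholly above Idi1 in acute CORT and in chronic CORT mice. In acute vehicle mice Acat2, Pmvk, Sqle, Mvd and Idi1 each overlapped the next in that order, down to Mvk, which lay wholly above Fdps. In chronic CORT+ENZA mice no neighbours in the order were separate. In chronic CORT mice Sqle was eighth, at 4.64 ± 1.12 CPM per kilobase, but it overlapped Mvk above it. With the longest transcript as length its rank there was 7. In acute CORT mice it was the third, at 17.4 ± 3.1, and overlapped Acat2 below it. The arms were not compared.

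**Figure D1:**
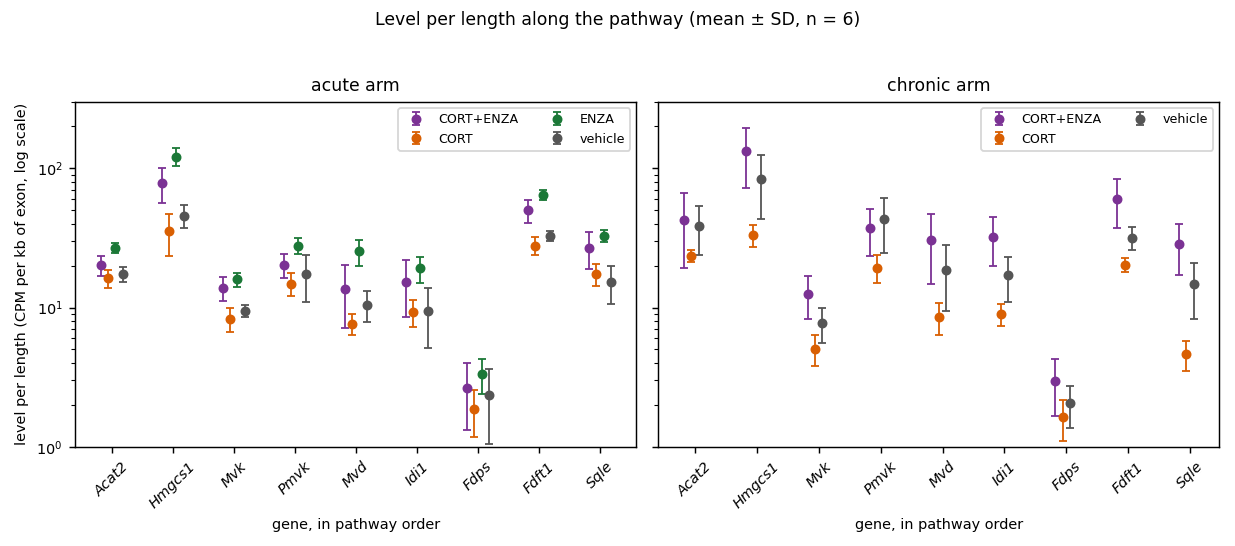
Level per length (CPM per kilobase of exon, log scale, mean ± SD of 6 mice) of the 9 genes in pathway order, by group, with the acute arm on the left and the chronic arm on the right. Hmgcs1 had the highest and Fdps the lowest mean in every group, and the group order CORT+ENZA above CORT recurs along the pathway in both arms.

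The level of Fdps is the least certain. A predicted readthrough gene, Gm43738, covers 26.7% of its exon bases on the same strand and was at 0 counts in all 42 libraries, and how reads in that stretch were assigned was not tested. For Acat2, 45.9% of its 50-base stretches also occur in Acat3 or Tcp1, against 30.5% for Idi1, 30.7% for Fdft1, 13.6% for Hmgcs1 and 11.7% for Fdps in other genes. Most of the shared sequence of Fdft1 is exon overlap with Ctsb on the opposite strand, and the strand setting of the counting is not stated. Mvk, Pmvk, Mvd and Sqle shared under 1%. Acat3 and Ctsb themselves passed no test in any of the 9 comparisons.

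In acute ENZA livers genes from the first steps of the pathway to its last were higher. Against vehicle, 6 of the 9 genes were higher and 0 lower, where 0.845% of the 13733 genes tested were higher and 0.466% lower (edgeR quasi-likelihood test, Benjamini-Hochberg adjusted p under 0.05, as for every call below). The 6 were Acat2, Hmgcs1, Mvk, Mvd, Fdft1 and Sqle, and in each of them the lowest ENZA mouse lay above the highest vehicle mouse, a separation seen upward in 1.02% of all genes. The median log2 fold change of the 9 was 0.98, against -0.00 over all genes. Their summed level averaged 1299.5 ± 144 CPM in ENZA and 594 ± 97.5 CPM in vehicle mice (SD, n = 6 each).

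Hmgcs1, the entry synthase, had 472, 557 and 677 CPM (lowest, median and highest mouse) in ENZA livers, against 173, 192 and 268 CPM in vehicle livers. Every ENZA mouse was well above every vehicle mouse. Its log2 fold change was 1.41 ± 0.19 (SE), a 2.66-fold difference (adjusted p = 0.000179). Acat2, the thiolase gene before it, had 60.5, 67.7 and 76.4 CPM in ENZA mice and 37.4, 44.8 and 50.8 CPM in vehicle mice. The groups did not overlap, and the log2 fold change was 0.62 ± 0.11 (adjusted p = 0.00222). Acat3, with which Acat2 shares sequence, had a log2 fold change of -0.01 ± 0.09 in the same comparison.

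Among the 3 steps that act on mevalonate, Mvk had 34, 42.6 and 49.4 CPM in ENZA mice, against 22.8, 24.5 and 29.9 CPM in vehicle mice. All ENZA mice were higher, by 0.75 ± 0.12 on the log2 scale (adjusted p = 0.00222). Mvd, the decarboxylase gene, had 34.3, 46.9 and 58.6 CPM in ENZA mice and 12.8, 19.3 and 27.2 CPM in vehicle mice. It was again higher without overlap, with a log2 fold change of 1.27 ± 0.22 (adjusted p = 0.00349). Pmvk, the kinase gene between them, had 40.8, 46.5 and 56.8 CPM in ENZA mice and 16.6, 30.1 and 46.2 CPM in vehicle mice. Its groups overlapped through vehicle mouse L1A, and its log2 fold change of 0.67 ± 0.18 did not pass (adjusted p = 0.0647).

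The isomerase gene Idi1 had 49.5, 66.3 and 85.5 CPM in ENZA mice and 9.02, 35.6 and 55 CPM in vehicle mice. The vehicle group was wide, with mouse L19A the lowest and L7A inside the ENZA range, and a log2 fold change of 1.01 ± 0.32 did not pass (adjusted p = 0.135). Fdps ranged over 10.3 to 19.7 CPM in ENZA mice and 4.84 to 18.4 CPM in vehicle mice, with vehicle mice L1A and L7A inside the ENZA range and the other 4 below it. Its log2 fold change of 0.51 ± 0.33 did not pass (adjusted p = 0.499). Fdft1, which commits farnesyl diphosphate to sterols, had 249, 272 and 312 CPM in ENZA mice and 118, 139.9 and 154 CPM in vehicle mice. The groups were well apart, and the difference of 0.98 ± 0.11 had the smallest adjusted p of the 9, 6.28e-06. Sqle had 156, 184 and 208 CPM in ENZA mice and 46.9, 85.7 and 125 CPM in vehicle mice. No vehicle mouse reached the ENZA range, and the log2 fold change was 1.12 ± 0.19 (adjusted p = 0.00222).

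**Figure D2:**
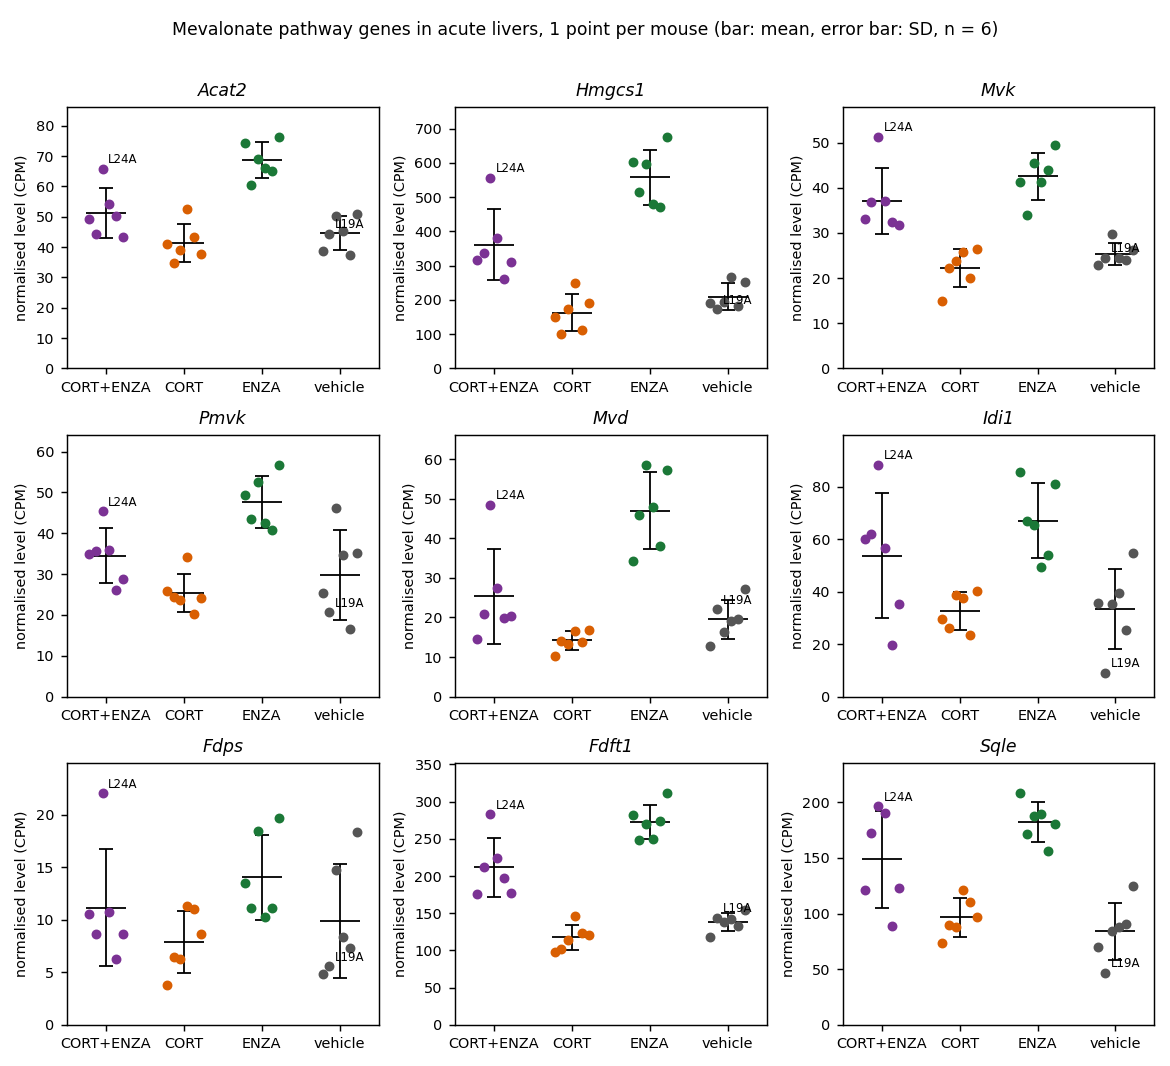
Normalised level (CPM) of each gene in each acute mouse, with the mean and SD of 6 mice per group; CORT+ENZA mouse L24A and vehicle mouse L19A are marked. ENZA mice sit above vehicle mice without overlap in 6 of the 9 genes, and L24A is the highest CORT+ENZA mouse in all 9.

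With corticosterone present, the steps that passed were Hmgcs1, Mvk and Fdft1. Between acute CORT+ENZA and CORT, 3 of 9 were higher and 0 lower, where 0.167% of all genes were higher and 0.00728% lower. The groups of these 3 did not overlap, and those of the other 6 did (0.313% of all genes upward). All 9 log2 fold changes were above 0, as were 49.0% over all genes, with a median of 0.72. Hmgcs1 had 262, 326 and 557 CPM in CORT+ENZA mice, against 101, 162 and 249 CPM in CORT mice. The lowest CORT+ENZA mouse stood just above the highest CORT mouse, and the log2 fold change was 1.15 ± 0.19 (adjusted p = 0.0054).

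Mvk had 31.8, 34.9 and 51.3 CPM in CORT+ENZA mice and 15, 22.9 and 26.4 CPM in CORT mice. Its separation was clear, at 0.74 ± 0.12 on the log2 scale (adjusted p = 0.0054). Fdft1 had 176, 205 and 283 CPM in CORT+ENZA mice and 98.4, 118 and 146 CPM in CORT mice. All 6 CORT+ENZA mice were higher, by 0.85 ± 0.11 (adjusted p = 9.51e-05). The other 6 genes had log2 fold changes from 0.31 for Acat2 to 0.84 for Mvd. Mouse L24A carried part of this, since without it the log2 fold change was 0.54 ± 0.18 for Mvd and 0.19 ± 0.32 for Fdps, against 0.50 for Fdps with all mice. For Sqle the values were 89.1, 148 and 196 CPM in CORT+ENZA mice and 73.1, 93.3 and 122 CPM in CORT mice, with a log2 fold change of 0.62 ± 0.19 (adjusted p = 0.374). Without both L19A and L36A it was 0.74 ± 0.15 (adjusted p = 0.0272), and 4 of the 9 genes were then higher. When only these 2 groups were fitted, 1 of the 9 was higher, Fdft1. Calls over all genes were 24 with all mice, 39 without both L19A and L36A and 16 with only these 2 groups.

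Acute CORT+ENZA livers lay between ENZA and vehicle livers. Against ENZA, all 9 log2 fold changes were below 0 (median -0.37), and 2 of 9 genes were lower, where 0.728% of all genes were lower. Acat2 had 43.3, 49.6 and 65.8 CPM in CORT+ENZA mice and 60.5, 67.7 and 76.4 CPM in ENZA mice. Only CORT+ENZA mouse L24A lay within the ENZA range, and the log2 fold change was -0.42 ± 0.11 (adjusted p = 0.0351). Mvd had 14.7, 20.7 and 48.6 CPM in CORT+ENZA mice and 34.3, 46.9 and 58.6 CPM in ENZA mice. Here too L24A alone overlapped, and the log2 fold change was -0.89 ± 0.22 (adjusted p = 0.0351). The count was 0 without any 1 of CORT+ENZA mice L6A, L12A, L18A and L36A or ENZA mice L5A, L23A and L29A, 1 without ENZA mouse L11A, L17A or L35A, and 4 without L24A. The genes added without L24A were Hmgcs1 (-0.79 ± 0.18, adjusted p = 0.0242) and Fdft1 (-0.47 ± 0.10, adjusted p = 0.0155). Without both L19A and L36A the count was 1, and Mvd had a log2 fold change of -0.83 ± 0.25 (adjusted p = 0.0809). Calls over all genes were 248 with all mice, 172 without L24A and 343 without both L19A and L36A.

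Against vehicle, 4 of 9 genes were higher in acute CORT+ENZA, where 1.42% of all genes were higher. The log2 fold changes were 0.78 ± 0.19 for Hmgcs1 (adjusted p = 0.0238), 0.55 ± 0.12 for Mvk (adjusted p = 0.0147), 0.62 ± 0.11 for Fdft1 (adjusted p = 0.00173) and 0.82 ± 0.19 for Sqle (adjusted p = 0.0167). Mvk and Fdft1 were separate between the groups (1.14% of all genes upward), in Hmgcs1 CORT+ENZA mouse L36A reached into the vehicle range, and in Sqle so did L36A, L12A and L6A. Without CORT+ENZA mouse L24A the count was 1, Fdft1 at 0.52 ± 0.10 (adjusted p = 0.00488), and the adjusted p was 0.0516 for Sqle, 0.0532 for Mvk and 0.0792 for Hmgcs1. Calls over all genes were 339 with all mice and 207 without L24A. B cell markers were lower in acute CORT+ENZA mice too, 2 of 3 measured against ENZA and 3 of 3 against vehicle, with a summed level of 1.49 to 2.29 CPM in CORT+ENZA, 3.02 to 8.41 CPM in ENZA and 2.37 to 5.98 CPM in vehicle mice, and their part in these results was not tested. The comparisons in the acute arm share their CORT+ENZA, CORT, ENZA and vehicle mice and are given side by side.

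Between acute CORT and vehicle livers 0 of the 9 genes were called, where 1.62% of all genes were. At so small a share the 0 says little about the 9. At an unadjusted p under 0.05 (14.1% of all genes) there was 1, near that share. It was Fdft1, which had 98.4, 118 and 146 CPM in CORT mice and 118, 139.9 and 154 CPM in vehicle mice. Its groups overlapped, and the log2 fold change was -0.24 ± 0.11 (adjusted p = 0.31). DESeq2 and limma-voom likewise called 0 of the 9. Log2 fold changes ran from -0.46 for Mvd to 0.20 for Sqle, the only 1 above 0, with a median of -0.23 against -0.01 over all genes. Group means followed the order ENZA, CORT+ENZA, vehicle, CORT from high to low in 8 of the 9 genes; Sqle was the exception. Without L24A the order did not hold for Fdps either, whose log2 fold change in CORT+ENZA against vehicle was then -0.14 ± 0.31, against 0.18 with all mice. B cell markers were lower in acute CORT than in vehicle livers, 3 of 3 measured, with a summed level of 1.2 to 2.3 CPM in CORT and 2.37 to 5.98 CPM in vehicle mice, and their part in these levels was not tested.

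Whether enzalutamide acted differently with and without corticosterone was tested as an interaction in the same acute fit. It was called for 0 of the 9 genes and for 0 of the 13733 (0.0%) by edgeR, DESeq2 and limma-voom. All 9 estimates were below 0, from -0.49 ± 0.26 for Sqle to -0.01 ± 0.48 for Fdps. That shared sign rested in part on mice that stand apart. Without both L19A and L36A, 3 estimates were above 0, 0.24 ± 0.49 for Fdps, 0.08 ± 0.31 for Idi1 and 0.04 ± 0.19 for Mvk, and Sqle was at -0.26 ± 0.21. Without L24A the estimate was -0.32 ± 0.43 for Fdps and -0.73 ± 0.24 for Mvd. Acat2 was the only member under an unadjusted p of 0.05 by edgeR (3.65% of all genes), with an estimate of -0.32 ± 0.15 (edgeR adjusted p = 0.994). The enzalutamide effects set side by side were 0.31 with and 0.62 without corticosterone for Acat2, and 0.62 with and 1.12 without for Sqle. For Mvk they were 0.74 with and 0.75 without.

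**Figure D3:**
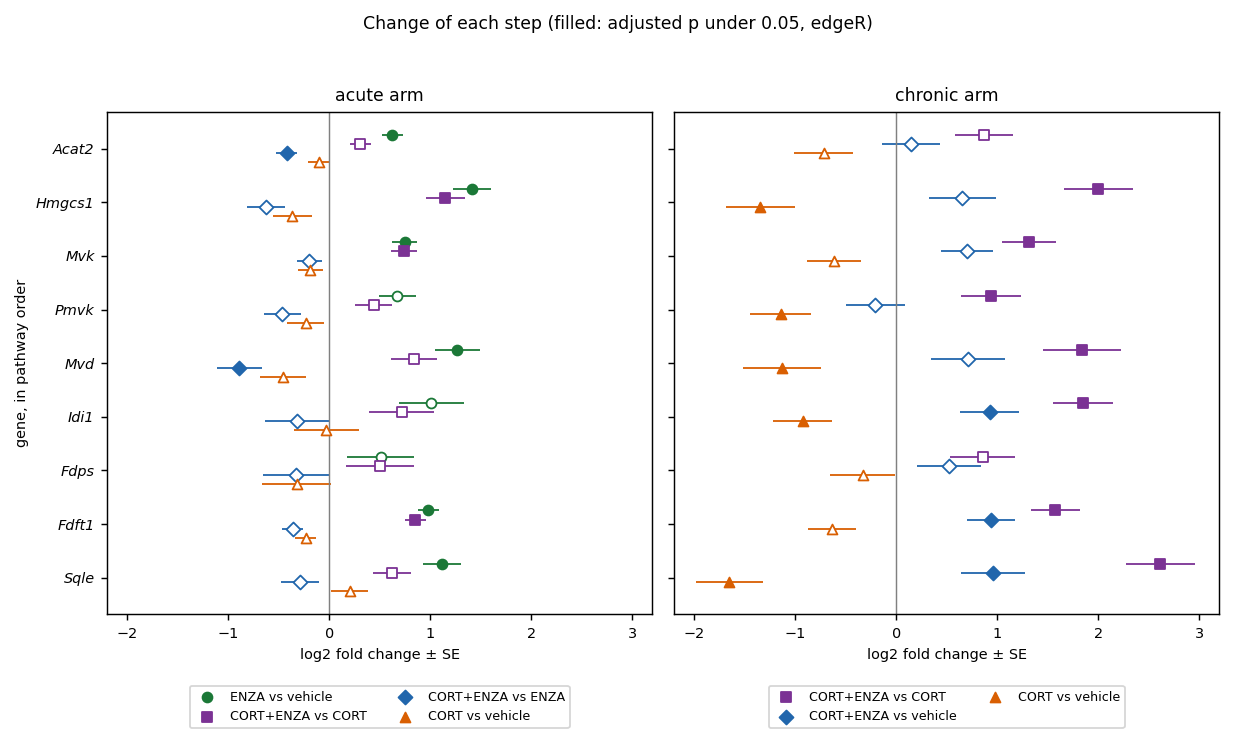
Log2 fold change ± SE of each gene, in pathway order from top to bottom, for 4 acute comparisons (left) and 3 chronic comparisons (right); filled symbols had an adjusted p under 0.05 in edgeR. Acute ENZA against vehicle and CORT+ENZA against CORT in both arms lie right of 0 for all 9 genes, chronic CORT against vehicle lies left of 0 for all 9, and acute CORT symbols are all open.

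In the chronic arm CORT livers had lower levels of several steps. Against vehicle, 5 of 9 genes were lower in CORT livers and 0 higher, where 9.29% of the 13099 genes tested were lower and 9.04% higher. They were Hmgcs1, Pmvk, Mvd, Idi1 and Sqle, which take in the beginning, middle and end of the route. All 9 log2 fold changes were below 0, with a median of -0.93, against -0.01 over all genes. The summed level of the 9 averaged 424 ± 35.2 CPM in CORT and 898 ± 353 CPM in vehicle mice (SD, n = 6 each), so that vehicle mice were the more variable.

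Sqle, the epoxidase gene, was lowered most, with 15, 27.3 and 32.6 CPM in CORT livers and 35.7, 83.3 and 123 CPM in vehicle livers. It was the only member whose groups did not overlap (4.55% of all genes downward), although the highest CORT mouse came close to vehicle mouse 11. Its log2 fold change was -1.66 ± 0.33 (adjusted p = 0.00236). Hmgcs1 had 129, 138 and 192 CPM in CORT livers and 172, 378 and 613 CPM in vehicle livers. Vehicle mice 11 and 12 lay within the CORT range, and the other 4 lay far above it. The log2 fold change was -1.35 ± 0.34 (adjusted p = 0.0102).

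Pmvk had 20.6, 36.6 and 39.3 CPM in CORT mice and 37.1, 71.2 and 113 CPM in vehicle mice. Only vehicle mouse 11 was inside the CORT range, and the log2 fold change was -1.15 ± 0.30 (adjusted p = 0.0128). Mvd had 11.3, 15.8 and 23.1 CPM in CORT mice and 14.9, 33.7 and 58 CPM in vehicle mice. The overlap came from vehicle mice 11 and 12, and the log2 fold change of -1.13 ± 0.38 passed narrowly (adjusted p = 0.0479). Idi1 had 20.5, 32.8 and 36.1 CPM in CORT mice and 23.9, 68.8 and 80.6 CPM in vehicle mice. Mouse 11 again fell among the CORT mice, and the log2 fold change was -0.93 ± 0.29 (adjusted p = 0.0363).

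The remaining members had log2 fold changes of -0.72 ± 0.29 for Acat2 (adjusted p = 0.0943), -0.62 ± 0.26 for Mvk (adjusted p = 0.116), -0.64 ± 0.24 for Fdft1 (adjusted p = 0.0685) and -0.33 ± 0.33 for Fdps (adjusted p = 0.511). The call count depended on the mice and the method. It was 3 without any 1 of CORT mice 1, 2, 3 and 25 or vehicle mice 10, 13, 14 and 15, 7 without CORT+ENZA mouse 18, which is in neither group, and 8 without both mice 11 and 18. Without vehicle mouse 11 alone it was 6, with Fdft1 added (-0.72 ± 0.25, adjusted p = 0.0485). Limma-voom with sample weights called 8. Calls over all genes moved too. They were 2401 with all mice, 1842 to 2287 in the fits with 3 members called and 2761 without mouse 11. Without mouse 18 they were 2922, without both 11 and 18 3394, and by limma-voom 3167. B cell markers were lower in the same comparison, 4 of 4, with a summed level of 0.0524 to 1.32 CPM in CORT and 2.83 to 7.5 CPM in vehicle mice. Of the 6 Kupffer cell markers 1 was lower (Timd4), with sums of 69.5 to 125 CPM in CORT and 72.6 to 257 CPM in vehicle mice, and 1 of 5 stellate cell markers was lower (Colec11). Among the 5 hepatocyte markers Hnf4a was higher (0.27 ± 0.09). The part of these cells in the pathway result was not tested.

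**Figure D4:**
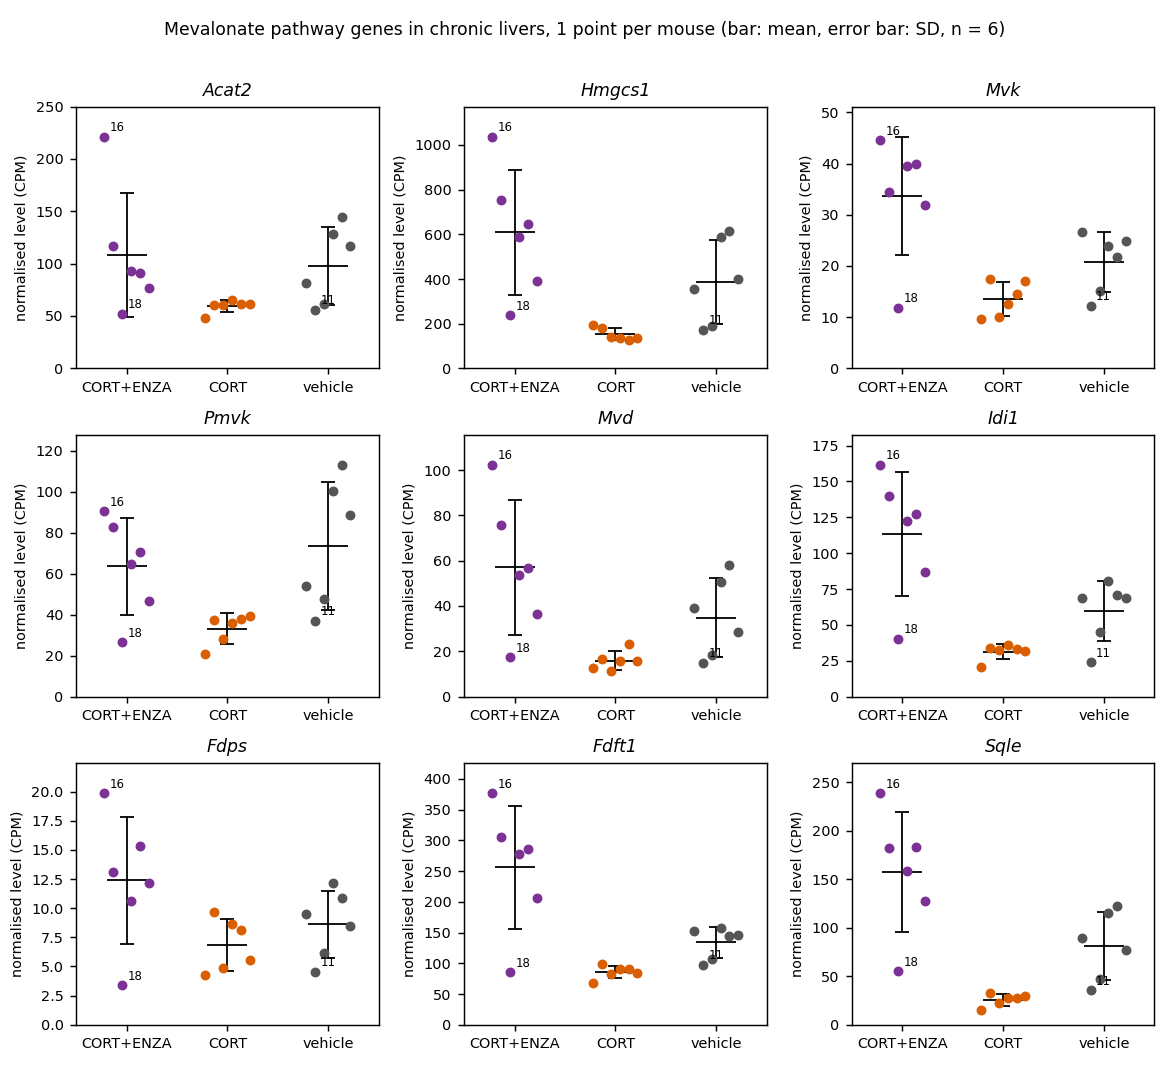
Normalised level (CPM) of each gene in each chronic mouse, with the mean and SD of 6 mice per group; CORT+ENZA mice 16 and 18 and vehicle mouse 11 are marked. CORT mice cluster low, and CORT+ENZA mice other than 18 lie above every CORT mouse in all 9 genes.

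With enzalutamide added to chronic corticosterone, most steps of the pathway were higher. In CORT+ENZA livers 7 of 9 genes were higher than in CORT livers and 0 lower, where 6.99% of all genes were higher and 4.86% lower. The comparisons of the chronic arm share their mice. The median log2 fold change of the 9 was 1.58, against -0.00 over all genes. Summed over the 9, CORT+ENZA mice averaged 1412 ± 601 CPM and CORT mice 424 ± 35.2 CPM (SD, n = 6 each). The groups were separate for 3 genes, Hmgcs1, Idi1 and Sqle (3.53% of all genes upward).

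Sqle had 55.1, 170.5 and 239 CPM in CORT+ENZA mice, against 15, 27.3 and 32.6 CPM in CORT mice. Even mouse 18, the lowest of its group, was above every CORT mouse. The difference was 2.61 ± 0.34 on the log2 scale, or 6.12-fold (adjusted p = 7.55e-05). Hmgcs1 had 238, 618 and 1037 CPM in CORT+ENZA mice and 129, 138 and 192 CPM in CORT mice. CORT mice were tightly grouped and CORT+ENZA mice widely spread, without overlap, and the log2 fold change was 2.00 ± 0.34 (adjusted p = 0.000949). Idi1 had 40.4, 125 and 162 CPM in CORT+ENZA mice and 20.5, 32.8 and 36.1 CPM in CORT mice. All CORT+ENZA mice were higher, by 1.85 ± 0.30 (adjusted p = 0.00053).

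For the other 4 called genes, mouse 18 alone among CORT+ENZA mice entered the CORT range. Fdft1 had 85.1, 282 and 377 CPM in CORT+ENZA and 68.3, 87.2 and 99 CPM in CORT mice (log2 fold change 1.58 ± 0.24, adjusted p = 0.000301). Mvd had 17.5, 55.1 and 102 CPM in CORT+ENZA and 11.3, 15.8 and 23.1 CPM in CORT mice (log2 fold change 1.84 ± 0.38, adjusted p = 0.00491). With mouse 18 set aside, both genes separated the groups. Mvk had 11.9, 37 and 44.5 CPM in CORT+ENZA and 9.7, 13.6 and 17.4 CPM in CORT mice (log2 fold change 1.31 ± 0.26, adjusted p = 0.00344). Pmvk had 26.6, 67.5 and 90.4 CPM in CORT+ENZA and 20.6, 36.6 and 39.3 CPM in CORT mice (log2 fold change 0.94 ± 0.30, adjusted p = 0.0492). Pmvk passed by the narrowest margin of the 7.

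Acat2 and Fdps did not pass with all mice, at 0.87 ± 0.29 (adjusted p = 0.0617) and 0.85 ± 0.32 (adjusted p = 0.0926). Without mouse 18 all 9 genes were higher, Acat2 by 1.00 ± 0.28 (adjusted p = 0.0275) and Fdps by 1.04 ± 0.25 (adjusted p = 0.00993). Calls over all genes were 1552 with all mice and 1529 without mouse 18. Hepatocyte markers were lower in the same comparison, 3 of 5, with log2 fold changes of -1.01 ± 0.10 for Ttr, -0.65 ± 0.13 for Alb and -0.31 ± 0.09 for Hnf4a. Their sum was 57219 to 78459 CPM in CORT+ENZA mice and 86779.5 to 120959 CPM in CORT mice. Of the 6 Kupffer cell markers Cd5l was higher (1.33 ± 0.40), and the sum was 93.7 to 471 CPM in CORT+ENZA mice, highest in mouse 18, and 69.5 to 125 CPM in CORT mice. Mouse 18 also had the highest hepatocyte marker sum of its group (78459 CPM) and the highest stellate cell marker sum (160 CPM). It had the lowest level of every pathway gene in its group. The part of these cell types in the pathway result was not tested.

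Against vehicle, chronic CORT+ENZA livers had 3 of 9 genes higher and 0 lower, where 10.3% of all genes were higher and 8.29% lower. The 3 were Idi1 (0.92 ± 0.29, adjusted p = 0.0342), Fdft1 (0.93 ± 0.24, adjusted p = 0.00981) and Sqle (0.96 ± 0.32, adjusted p = 0.0461). All 3 overlapped between the groups, by way of mouse 18, where 4.73% of all genes were separate upward. In the other 5 CORT+ENZA mice, all 3 genes lay above every vehicle mouse. Pmvk had a log2 fold change of -0.21 ± 0.29, the only 1 below 0, and the other 5 ran from 0.15 for Acat2 to 0.71 for Mvd. The count was 5 without mouse 18, with Mvk and Fdps added. It was 2 without vehicle mouse 11, where Sqle was at 0.81 ± 0.31 (adjusted p = 0.0782). It was 1 without any 1 of CORT+ENZA mice 4, 5, 16 and 17 or vehicle mouse 12, and 1 when only these 2 groups were fitted. Calls over all genes were 2434 in the main fit and 2142 with only these 2 groups. Of the hepatocyte markers Ttr (-1.19 ± 0.10) and Alb (-0.72 ± 0.13) were lower, as were 4 of 4 B cell markers, whose sum was 0.564 to 2.43 CPM in CORT+ENZA and 2.83 to 7.5 CPM in vehicle mice. The part of these cells in the pathway result was not tested.

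In some groups the 9 genes ranked the mice much alike. Among chronic CORT+ENZA mice, 18 was the lowest and 16 the highest for all 9, with summed levels of 530.5 and 2293 CPM; 16 was also the highest of all 18 chronic mice for 8 genes. Among chronic vehicle mice, 11 was the lowest for all 9 and 12 the next lowest for all 9, with summed levels of 454 and 538 CPM against 877 to 1299 CPM in the other 4. Mouse 1 was the lowest chronic CORT mouse for 7 genes. In the acute arm L24A was the highest CORT+ENZA mouse for all 9, at 1358 CPM in sum, above the lowest 3 ENZA mice, and L5A was the highest ENZA mouse for 6. L7A was likewise the highest acute vehicle mouse for 6 genes. In acute CORT, L2A was the highest for 6 and L14A the lowest for 5. At the other end of some groups the order was looser. The lowest mouse was split over 4 mice in acute ENZA and over 3 in acute vehicle, and the highest over 5 mice in chronic CORT. Group sums in the acute arm were 703, 872 and 1358 CPM in CORT+ENZA, 420.0, 498 and 695 CPM in CORT, 1155, 1281 and 1509.7 CPM in ENZA and 489.7, 572 and 742 CPM in vehicle mice (lowest, median and highest). The sums of ENZA and vehicle mice did not overlap, and those of CORT+ENZA and CORT mice did not overlap either.

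**Figure D5:**
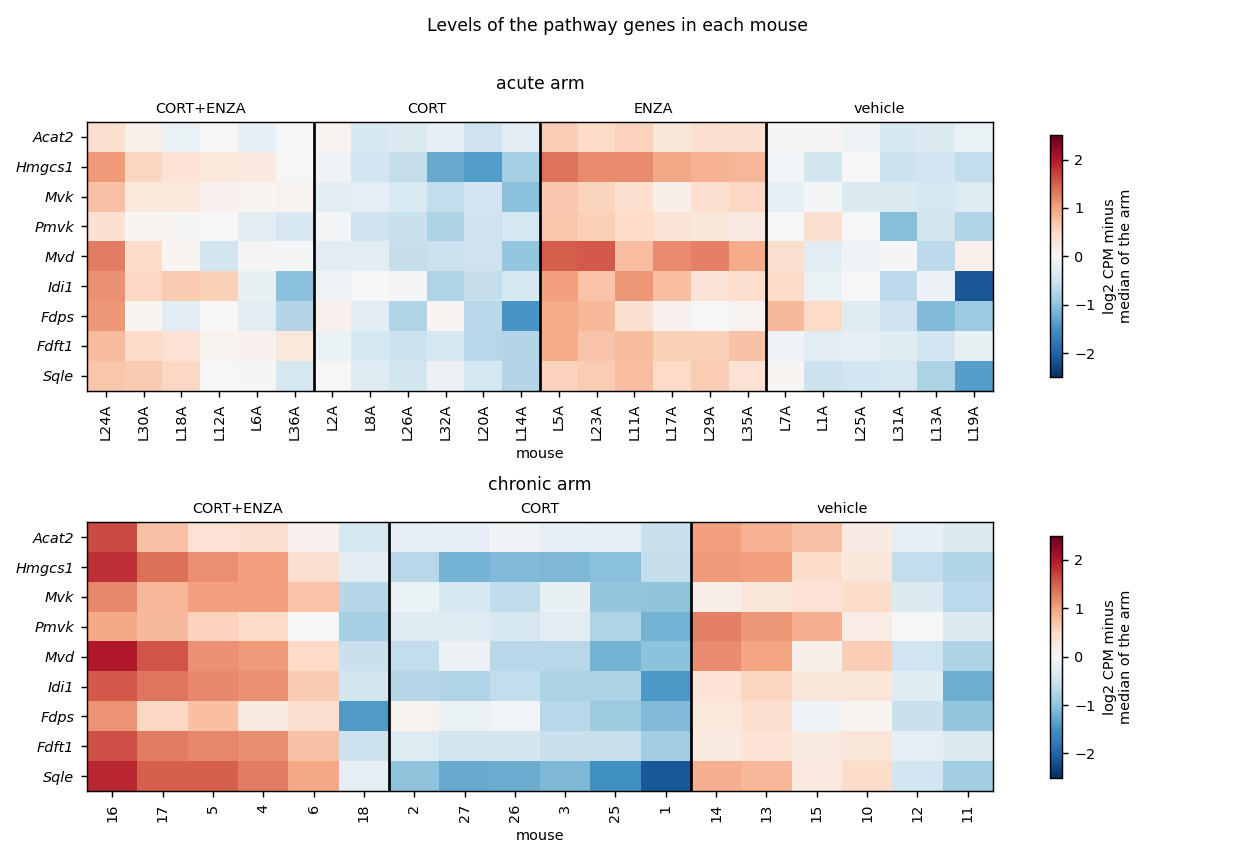
Log2 CPM of each gene (rows, pathway order) in each mouse (columns) minus the median of that gene over the arm, acute above and chronic below; within a group, mice are ordered by the mean of the rows. Columns are mostly of 1 colour, with chronic CORT+ENZA mice from 16 (high) to 18 (low) and chronic vehicle mice 11 and 12 low for all 9 genes.

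Beyond squalene epoxide, the sterol ring genes were called in the same comparisons. Of 11 ring genes, 6 were higher in acute ENZA than in vehicle livers and 0 lower (median log2 fold change 0.62). Of all genes, 0.845% were higher and 0.466% lower. Msmo1, the methylsterol monooxygenase gene, had 396, 430.0 and 501 CPM in ENZA and 143, 200.1 and 222 CPM in vehicle mice, without overlap (1.21 ± 0.14, adjusted p = 1.62e-05). The others were Lss (0.96 ± 0.16), Cyp51 (0.80 ± 0.14), Hsd17b7 (1.04 ± 0.18), Nsdhl (0.62 ± 0.13) and Dhcr7 (0.69 ± 0.11). In acute CORT+ENZA livers 2 were higher than in CORT livers (Msmo1 and Lss), where 0.167% of all genes were higher. Against vehicle 5 were higher, where 1.42% of all genes were. Sc5d, the sterol desaturase gene, was lower than in ENZA livers (-0.59 ± 0.13), where 0.728% of all genes were lower. With acute CORT alone 0 of 11 were called, where 1.62% of all genes were, so this 0 says little about the 11.

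In the chronic arm 9 of the 11 ring genes were higher in CORT+ENZA than in CORT livers and 0 lower (median 1.20), Msmo1 by 2.16 ± 0.30 and Cyp51 by 1.73 ± 0.26. In that comparison 6.99% of all genes were higher. With chronic CORT against vehicle, 5 were lower (Lss, Cyp51, Msmo1, Sc5d and Dhcr7) and 1 higher. Of all genes, 9.29% were lower and 9.04% higher. Against vehicle, chronic CORT+ENZA livers had 4 higher, Msmo1 among them (1.14 ± 0.29), and Sc5d lower (-0.72 ± 0.17). Here 10.3% of all genes were higher and 8.29% lower.

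Of all genes, 0.845% were higher and 0.466% lower in acute ENZA than in vehicle livers. Of 7 genes of SREBP and its processing, 1 was higher there and 0 lower (median log2 fold change of the 7 0.39). It was Insig1, which encodes a sterol-sensing retention protein and is itself a known SREBP target. It had 346, 377 and 525 CPM in ENZA and 131, 192 and 282 CPM in vehicle mice, without overlap (1.03 ± 0.24, adjusted p = 0.0309). Its relative Insig2 was higher in acute CORT+ENZA than in vehicle livers (0.91 ± 0.18, adjusted p = 0.00725), and in acute CORT its change was 0.66 ± 0.18 (adjusted p = 0.0625). In the chronic arm the median of the 7 was 0.13 in CORT+ENZA against CORT. In the chronic comparisons 11.8% to 18.6% of all genes were called either way. Chronic CORT raised Insig2 (0.45 ± 0.12) and lowered Insig1 (-0.88 ± 0.22) and Scap, the SREBP escort gene (-0.72 ± 0.14). Srebf2, which encodes SREBP-2, was higher in chronic CORT+ENZA than in CORT livers (0.56 ± 0.13, adjusted p = 0.0077) and than in vehicle livers (0.39 ± 0.13). Srebf1 passed no comparison. Chronic CORT+ENZA livers also had Insig2 higher (0.45 ± 0.12) and Scap lower (-0.59 ± 0.14) than vehicle livers.

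Farnesyl diphosphate is also used outside the sterol branch. Of 13 genes of prenylation, dolichol and ubiquinone synthesis, 0 were called in any of the 6 acute comparisons or between chronic CORT+ENZA and CORT. Of all genes, 0.0% to 2.47% were called either way in the acute comparisons and 11.8% in the chronic one, so the count of 0 says little about these 13. Their median log2 fold change in acute ENZA against vehicle was 0.03, and in chronic CORT+ENZA against CORT 0.05. Chronic CORT raised Zmpste24, Icmt and Nus1 and lowered Dhdds and Rce1 against vehicle, with log2 fold changes from -0.37 for Dhdds to 0.31 for Icmt. In that comparison 18.3% of all genes were called either way. Zmpste24, Icmt and Nus1 were also the 3 called higher in chronic CORT+ENZA than in vehicle livers. There 10.3% of all genes were higher and 18.6% called either way. Of 7 measured genes of acetyl-CoA supply and paralogs, 0 were called in the acute arm (median -0.01 in ENZA against vehicle). In chronic CORT livers Acly and Acss2, which make cytosolic acetyl-CoA from citrate and acetate, were lower than in vehicle livers, Acly with a log2 fold change of -1.48 ± 0.42 and Acss2 with -1.33 ± 0.43. Of all genes, 9.29% were lower in that comparison. Acly was also lower in chronic CORT+ENZA than in vehicle livers (-1.77 ± 0.42), as was Acat1, the mitochondrial thiolase gene (-0.37 ± 0.13). Here 8.29% of all genes were lower. Between chronic CORT+ENZA and CORT livers Acly differed by -0.29 ± 0.41 (adjusted p = 0.715), in the comparison where 7 of the 9 members were higher.

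Of 9 LXR target and sterol export genes, 0 to 2 were called in each comparison. Of all genes, 0.0% to 2.47% were called either way in the acute comparisons and 11.8% to 18.6% in the chronic ones. The chronic counts therefore say little about these 9. Their median log2 fold change was 0.32 in acute ENZA against vehicle and 0.03 in chronic CORT+ENZA against CORT. Lpcat3, a phospholipid remodelling gene, was higher in acute ENZA than in vehicle livers (0.33 ± 0.08) and lower in acute CORT+ENZA than in ENZA livers (-0.38 ± 0.08). Chronic CORT lowered Lpcat3 (-0.32 ± 0.09) and the sterol transporter gene Abcg1 (-0.68 ± 0.22), and Abcg1 was higher in chronic CORT+ENZA than in CORT livers (0.85 ± 0.22). Scd1, the stearoyl-CoA desaturase gene, was lower in chronic CORT+ENZA than in CORT livers (-1.24 ± 0.28). It was also lower than in vehicle livers (-1.48 ± 0.28), as was Nr1h2, the gene of LXR beta (-0.27 ± 0.08).

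The genes whose pattern was most like the mean of the 9 members were sought among 11885 others by the lower of their Pearson correlations over the 24 acute and the 18 chronic libraries. These correlations are descriptions over libraries that share treatment groups and normalisation, with no test. Lss, the cyclase gene that acts directly after Sqle, came first, with r = 0.98 over acute and 0.95 over chronic libraries. Cyp51 (0.94 over acute and 0.97 over chronic libraries) and Dhcr7 (0.94 over acute and 0.98 over chronic libraries) followed. Msmo1, the retinol dehydrogenase gene Rdh11, Hsd17b7, Nsdhl and Erg28 came next, the last of these at 0.86 over acute and 0.85 over chronic libraries. Of these 8 genes, 6 were among the 11 ring genes above. By Spearman's rho, 7 of the 8 also took the first 7 places, with Dhcr7 first, and Erg28 was thirteenth.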

How the data were processed

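Polyadenylated RNA from snap-frozen livers of 42 mice was sequenced as stranded libraries, in 100 bp paired-end reads on a BGI DNBseq instrument, per the labels' protocols. The authors deposited a table of raw read counts per gene for each arm; FastQC, MultiQC, STAR 2.7.3a, HTSeq 0.12.4 and build mm10 are named in the submitters' processing notes. The annotation release and the strand setting of the counting are stated in none of the sources. Of the 55573 gene IDs, 55394 were paired with a symbol through GENCODE M21, which also gave coordinates and exon lengths. The 5 HTSeq summary lines of each table were kept out of library sizes; reads aligned at several places came to 9.34% to 12.8% of the acute and 18.6% to 22.7% of the chronic totals.

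Genes passed filterByExpr (minimum count 10, minimum total 15), and TMM-normalised counts were tested per arm with edgeR 4.0.16 (quasi-likelihood, robust) in R 4.3.3, all groups of an arm sharing the spread. P-values were adjusted over all genes of the table by Benjamini-Hochberg. Levels are TMM-normalised CPM, and SD is over the 6 mice of a group. The SE of a log2 fold change is its absolute value divided by the square root of the quasi-likelihood F statistic. The number of 6 mice a group limits the precision, and the labels do not say more than that each library is a separate mouse. Alternatives were RLE size factors, DESeq2 1.42.0, limma-voom with quality weights per sample (limma 3.58.1), no filter or a stricter filter (CPM of 1 in 6 libraries), only the groups compared, the longest transcript as gene length, Spearman likeness, leaving out libraries singly or in pairs that stand apart, and, added after seeing the data, a block by sets of acute mouse numbers. The fit was tested on simulated counts with known changes. All 9 members are described; of other genes, those of the pathway lists past the test and up to 10 of most like pattern could be named. The members, lists and alternatives were chosen with earlier results of these data known. Counts over the pathway lists take in every listed gene, and 1 gene of the lists is not reported here by itself.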

Additional observations from a re-analysis of the deposited data

Results flagged for a closer look

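Of 63 groups of 6 mice (9 genes in 7 groups), 4 held a mouse whose distance to its nearest neighbour was a larger share of the group's range than Dixon's test allows at the 95% level; chance gives about 1 in 20 groups. In acute CORT+ENZA livers, mouse L24A had 51.33 CPM of Mvk, where the other 5 had 31.76 to 37.11 CPM. The same mouse had 22.06 CPM of Fdps, where the other 5 had 6.269 to 10.73 CPM. In chronic CORT livers, mouse 1 had 48.06 CPM of Acat2, where the other 5 had 60.15 to 65.51 CPM. Mouse 1 also had 20.49 CPM of Idi1, where the other 5 had 32.01 to 36.07 CPM. The cause was not tested.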

How the results depend on the processing

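Without any 1 library, the number of members called ran from 6 to 7 higher in acute ENZA against vehicle, 3 to 3 higher in acute CORT+ENZA against CORT, 1 to 4 higher in acute CORT+ENZA against vehicle and 0 to 4 lower in acute CORT+ENZA against ENZA. In the chronic arm it ran from 6 to 9 higher in CORT+ENZA against CORT, 1 to 5 higher in CORT+ENZA against vehicle and 3 to 7 lower in CORT against vehicle. When only the groups compared were fitted, the count was 1 higher in acute CORT+ENZA against CORT, 1 lower in acute CORT+ENZA against ENZA and 1 higher in chronic CORT+ENZA against vehicle. With no filter on low counts it was 1 lower in acute CORT+ENZA against ENZA, 2 higher in acute CORT+ENZA against vehicle, 3 lower in chronic CORT against vehicle and 1 higher in chronic CORT+ENZA against vehicle. DESeq2 gave 4 lower in acute CORT+ENZA against ENZA, and leaving out both L19A and L36A gave 1. In chronic CORT against vehicle limma-voom gave 8 lower, as did leaving out both 11 and 18. Calls over all genes in that comparison were 2401 in the main fit, 3167 by limma-voom and 3394 without both mice. No setting turned a called member round, and the causes of these shifts were not tested. Of the values of single members, leaving libraries out singly aside, 570 kept their side of the threshold, 27 gained a call and 15 lost one. With 1 library left out, 1693 kept their side, 11 gained and 77 lost one, and Acat2 in chronic CORT+ENZA against vehicle had a log2 fold change of -0.19 without mouse 16. Fdps in acute CORT+ENZA against vehicle turned to -0.14 without L24A. RLE size factors and the stricter filter left all member counts as they were. With the longest transcript as gene length, Hmgcs1 stayed highest and Fdps lowest per kilobase by group mean in all 7 groups. Over all genes, acute CORT against vehicle had 222 genes called by edgeR and 432 by DESeq2. No mouse number repeats between groups, and the labels name no sets; acute numbers run in sets of 6 holding 1 mouse of each group, and a replicate block by set was chosen after seeing the data. With it 7 members were higher in acute ENZA against vehicle (Pmvk added), 3 higher in CORT+ENZA against CORT, 4 higher in CORT+ENZA against vehicle, 2 lower in CORT+ENZA against ENZA, and 0 in CORT against vehicle and in the interaction. Deviations from group means correlated above 0.1 in 11 of 36 pairs from 1 set (median 0.07). Among pairs from other sets and other groups, 27 of 180 did (median -0.01). Whether the sets pair the mice was not tested, and the main fits hold no block. Chronic numbers form no such sets.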
